A study of Drosophila melanogaster with 3 samples.

Results

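Binding of CG8159, a zinc finger protein, was mapped in whole Drosophila melanogaster pupae aged 24 hours, pooled from both sexes, by chromatin immunoprecipitation and sequencing (ChIP-seq). The pupae came from 1 transgenic line that stably carries CG8159 joined at its C terminus to GFP, and the labels describe the precipitation as made with an antibody against GFP, although their antibody field names CG8159. There were 3 biological replicates of this line in 1 group, so the spread given here is between samples of a single line, and there was no other condition. The genes described here are 8 corepressor genes and close relatives of that function: Gug, ush, cbt, gro, CtBP, Sin3A, Smr and HDAC1, out of 13945 protein-coding genes on the 6 chromosome arms that held peaks. They were chosen by the signal of the peaks, after earlier results of these data had shown strong intronic peaks in Gug and in ush beside cbt, so the levels below are a description and no test was made on them. A peak was counted for a gene where its summit, the deposited base of highest signal, lay between 5 kb upstream of the gene and 2 kb past its end. The deposited list filtered by irreproducible discovery rate (IDR), a procedure based on how well peak ranking repeats, held 50 peaks in these windows, 0.488% of that list. The pooled list, called on the 3 replicates together, held 124 in the windows, out of 30000 peaks. The lists of replicates 1, 2 and 3 held 123, 139 and 117, each also out of 30000. The IDR list consisted of the strongest peaks of the pooled list, so a peak in it need not repeat in every replicate. No read total accompanies the lists, so depth is unknown.

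Corepressors are proteins that DNA-binding repressors bring to their target genes, and many act by recruiting enzymes that remove acetyl groups from histones. Groucho, encoded by gro, and C-terminal binding protein, encoded by CtBP, serve many repressors of the fly embryo and imaginal discs. Gug encodes Atrophin, which works with nuclear receptors of the Tailless kind. The ush product, U-shaped, is a zinc finger cofactor of GATA factors such as Pannier and is known for its part in bristle patterning and blood cell formation. Smr encodes SMRTER, a corepressor of the ecdysone receptor, the hormone receptor that directs metamorphosis. Sin3A is the scaffold of a histone deacetylase complex, and HDAC1, long known as Rpd3, is its enzyme. The cbt product, Cabut, is a zinc finger transcription factor of the Krüppel-like family rather than a corepressor in the strict sense. No transcript level was measured, so nothing here says whether any of these genes was active.

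Reference sequence is shown at the leading summits of Gug, ush, cbt, gro, Smr and HDAC1 and at an intronic summit of CtBP, to let these sites be compared by eye. Each run is the summit base with 50 bases on both sides, on the dm6 plus strand, from the RefSeq release 6 assembly. Capitals mark matches to any of 6 motifs searched on both strands, none of which contains another. They were GAGAG of the GAGA factor, TATCGATA of the boundary factor BEAF-32 and of DREF, and GATAA of GATA factors. The others were the E-box CACGTG of helix-loop-helix factors, the GC box GGGCGG, and CACCC of Krüppel-like factors. The Gug runs are chr3L:8455546-8455646 and chr3L:8458288-8458388, both intronic. The runs from ush are chr2L:481043-481143 and chr2L:480026-480126, which lie in an intron of ush and upstream of cbt. The gro run is chr3R:26042441-26042541, just upstream of an internal start site, and the Smr run is chrX:12735633-12735733, intronic. The HDAC1 run, chr3L:4624821-4624921, lies in an intron of its neighbour Src64B. The CtBP run, chr3R:13012472-13012572, is its strongest intronic summit and is shown because it is poor in A and T.
Gug strongest: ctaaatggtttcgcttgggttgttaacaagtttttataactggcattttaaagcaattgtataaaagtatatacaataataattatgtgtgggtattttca
Gug next: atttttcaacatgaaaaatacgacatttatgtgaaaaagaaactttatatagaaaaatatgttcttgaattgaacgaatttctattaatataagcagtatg
ush and cbt strongest: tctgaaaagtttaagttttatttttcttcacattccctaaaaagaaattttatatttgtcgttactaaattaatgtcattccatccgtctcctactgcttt
ush and cbt next: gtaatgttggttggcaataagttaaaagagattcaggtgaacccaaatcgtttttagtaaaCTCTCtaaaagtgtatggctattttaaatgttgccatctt
gro strongest: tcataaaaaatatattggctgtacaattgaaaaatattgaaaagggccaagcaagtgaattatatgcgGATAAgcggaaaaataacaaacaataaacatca
Smr strongest: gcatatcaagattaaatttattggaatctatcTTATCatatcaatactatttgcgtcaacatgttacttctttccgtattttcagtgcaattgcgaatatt
HDAC1 strongest: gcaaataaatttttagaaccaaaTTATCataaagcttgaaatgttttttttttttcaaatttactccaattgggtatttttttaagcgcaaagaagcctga
CtBP intronic: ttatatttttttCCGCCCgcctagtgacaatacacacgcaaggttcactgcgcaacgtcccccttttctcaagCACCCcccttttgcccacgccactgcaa

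The 8 genes did not share one arrangement, and the working description of strong intronic sites held for only some of them. All 8 had at least 1 IDR peak in the window, which 50.5% of all protein-coding genes also had. An intronic summit more than 500 bp from any of the gene's own start sites was found in 5 members (Gug, ush, CtBP, Sin3A and Smr), against 11.5% of all protein-coding genes. One of the 300 strongest IDR summits lay in the window of 5 members (Gug, ush, cbt, CtBP and Smr), against 4.22% of genes, and in an intron of 3 (Gug, ush and Smr), against 0.71%. The class of the 300 strongest was set after the data had been seen. Smr enters it at rank 288, with ranks of 200, 767 and 210 in replicates 1, 2 and 3. Gug, ush and Smr are long genes. Among the 1013 protein-coding genes of 20 kb or more, a length class set after the data had been seen, 72.1% had an intronic summit and 4.54% had one of the 300 strongest in an intron. For gro, Sin3A and HDAC1 no summit was among the 300 strongest, and the leading CtBP peak lay upstream of the gene. Because the members were picked on these values, the shares of all genes are given for scale and nothing is read from the difference.

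**Figure D1:**
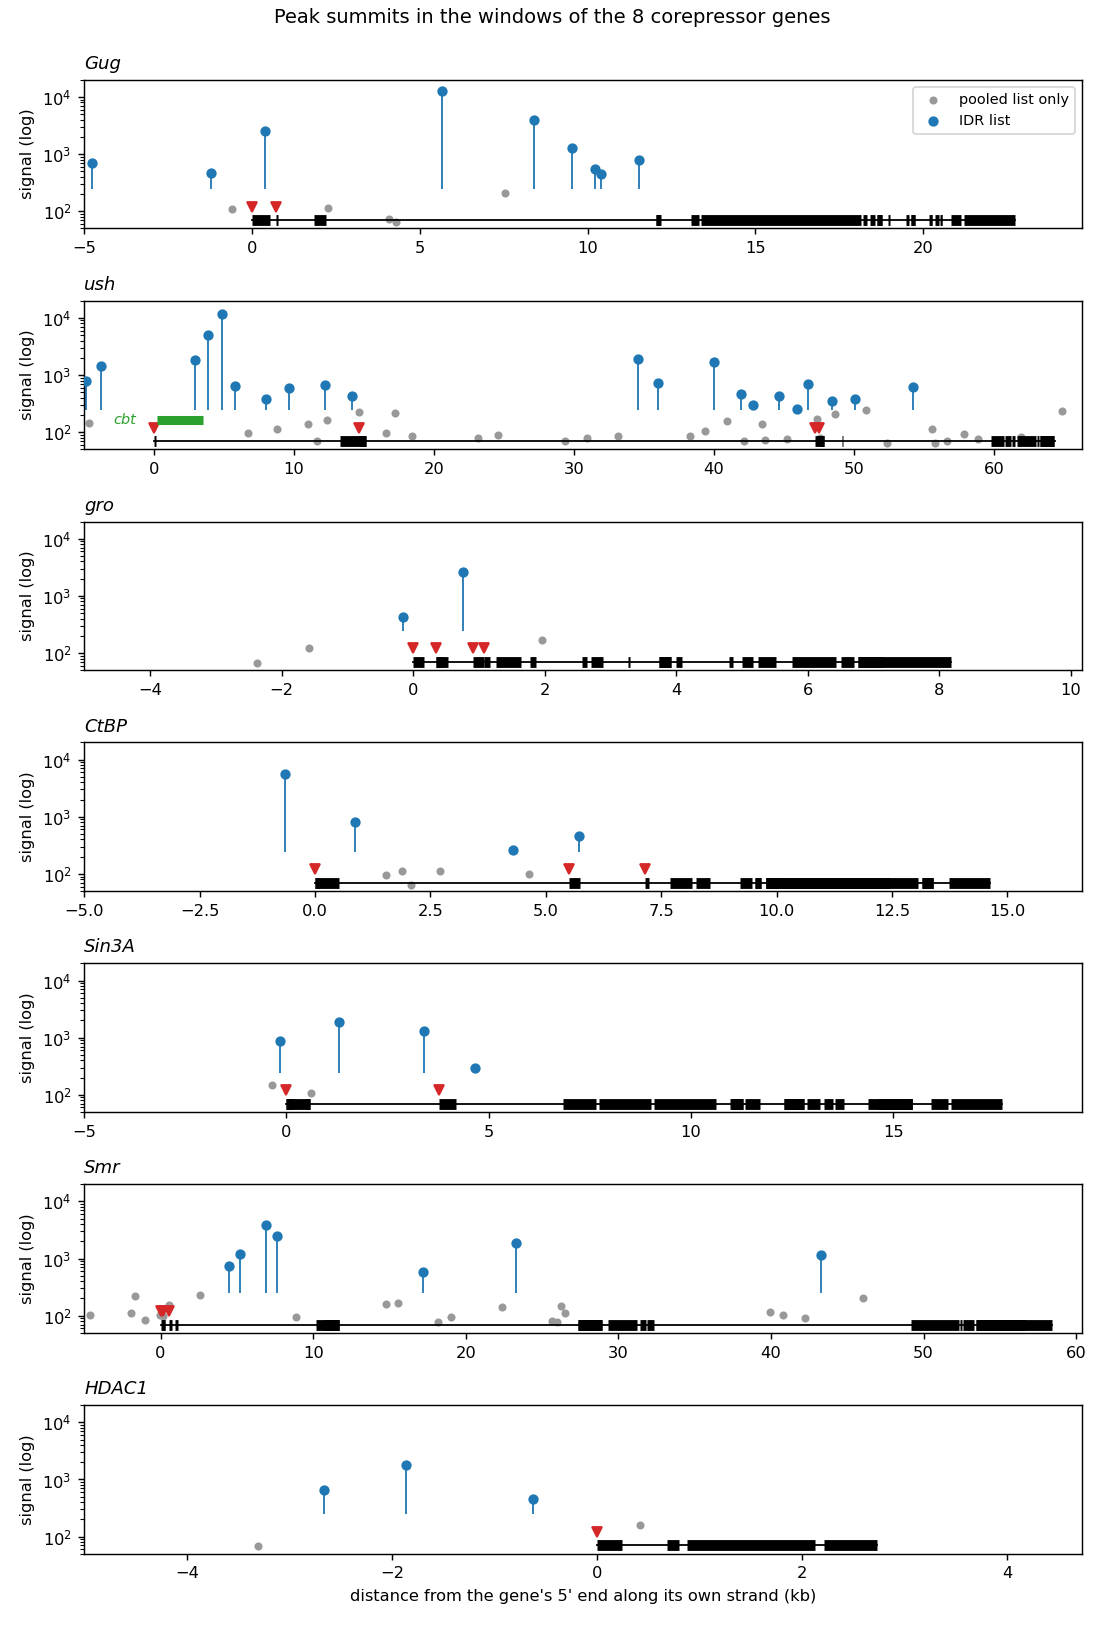
Peak summits along 7 gene windows, with distance from the gene's 5′ end in kb on the horizontal axis and the authors' signal on a logarithmic vertical axis; blue stems are IDR peaks, grey points are peaks of the pooled list only, black boxes are exons of any transcript, red triangles are start sites, and the green bar is cbt, which is read leftwards from its right end. The highest stems of Gug and Smr rise from introns and that of ush from an intron just beyond cbt, while the highest of CtBP and HDAC1 stand upstream of the gene.

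Relative to the member itself, 33 of the 50 IDR peaks were intronic, 8 lay within 500 bp of a start site, 8 were farther upstream, 1 was in another exon and none was past the gene's end. The order promoter, exon, intron, upstream was used where ush and cbt shared a peak. Seen from ush alone the nested cbt peaks also count as intronic, which brings the intronic total to 35. Of these 35, 30 lay in the first intron of at least 1 transcript. The same share of all intronic IDR summits is not given, so this count describes the members alone. The median distance of the 35 from the nearest start site of the gene was 4975 bp. By any annotated gene, 37 of the 50 (74.0%) were intronic, 12 (24.0%) were promoter summits and none was intergenic, where the whole IDR list had 44.5%, 31.2% and 21.7%. The windows were built on genes, so a low intergenic share follows from the rule. Of the 50 summits, 31 had a start site of a member as the nearest annotated one, 3 in ush were equally near to a start site that ush shares with a noncoding RNA gene, and 16 lay closer to another gene, coding or noncoding.

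**Figure D2:**
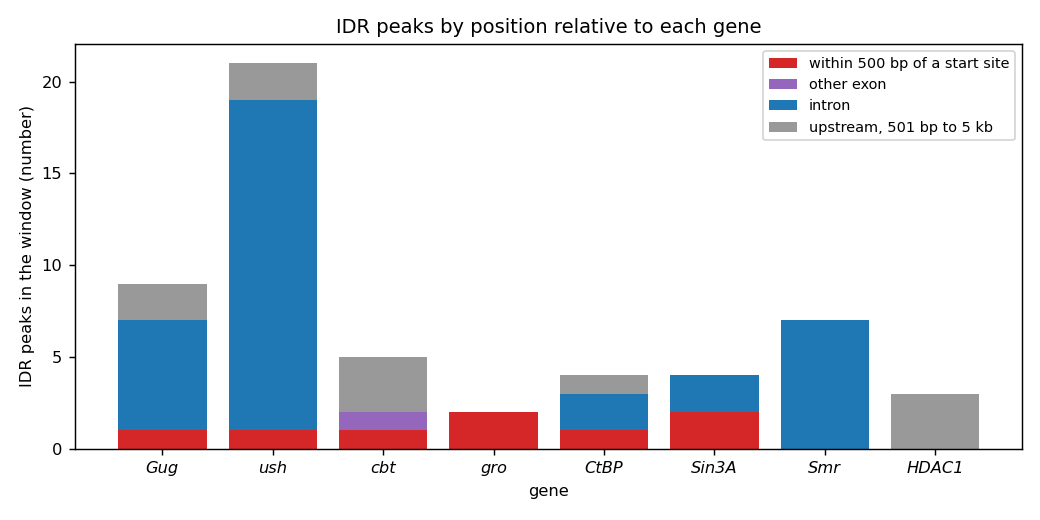
Number of IDR peaks in each gene's window, stacked by position relative to that gene; peaks shared by ush and cbt are counted under both. The ush column holds 21 peaks, 18 of them intronic, whereas both gro peaks lie within 500 bp of a start site and all 3 HDAC1 peaks lie upstream.

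Gug, at chr3L:8449922-8472669 on the plus strand, had 9 IDR peaks, and all were held by every replicate. Held means here that the peak was overlapped by at least 1 of the strongest peaks of the replicate, taking as many of them as the IDR list contains. Its leading peak, chr3L:8455210-8456021, was 4948 bp downstream of the nearer of the gene's 2 start sites and ranked 9 in the IDR list with a signal of 12575. Its rank was 4 in replicate 1, 42 in replicate 2 and 19 in replicate 3, with signals of 6871, 2441 and 3246 on the separate scale of each list. Replicate 1 placed this site highest and replicate 2 lowest, but all 3 put the summit within 17 bp of the IDR summit. A second intronic peak with a signal of 3940 (rank 286) followed 2742 bp farther in, with ranks of 332, 268 and 275 in replicates 1 to 3, a narrow spread. Summits of signal 1266, 545, 448 and 785 continued along the same stretch. The middle pair had overlapping intervals that replicate 1 covered by a single peak. In replicate 2 the best match of the 448 peak ranked 11295, outside the strongest peaks taken. That peak was therefore held by replicate 2 only through overlap with another peak. In all, 6 intronic peaks lay 4948 to 10794 bp from the nearest start site. All 6 lay in an intron that is the first of 2 of the 9 annotated transcripts and the second of the other 7. The promoter peak, between the start sites and 346 bp upstream of the internal one, had a signal of 2537 (rank 715). The other 2 peaks lay in the neighbouring gene CG6983, upstream of Gug. The intronic sites next to it in rank, leaving out members, were in the nuclear receptor gene Hr4 at rank 4 and in bip1 at rank 10.

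The ush gene, at chr2L:476220-540560 on the plus strand, had 21 IDR peaks, and 16 of the 13945 protein-coding genes had more. It is also long, since only 197 genes are longer, and among the 1013 genes of 20 kb or more the median was 3 peaks and 21 genes, ush included, had at least 21. The peaks fell in separate stretches. From 479135 to 490369, 8 summits lay in or just past the opening intron of ush, within which cbt is nested in the opposite orientation, and from 510763 to 530413 another 11 followed. Between those stretches 20394 bp held no IDR summit, although the pooled list had 9 weaker peaks there, the best at rank 11062. The strongest peak of ush, chr2L:480863-481320, had a signal of 11586 and ranked 11 in the IDR list. It ranked 17, 7 and 9 in replicates 1, 2 and 3, with summits at most 6 bp from the IDR summit, and was the leading peak of the window in each. In the distal stretch the highest signal was 1915 (rank 1152) and the lowest 253 (rank 10011). Of the 21 peaks, 17 were held by all 3 replicates and the others by 2. A promoter summit lay 466 bp upstream of the start site at which the noncoding RNA gene lncRNA:CR46258 also begins, with a signal of 426, and was held by 2 replicates. The 2 peaks upstream of ush lay 195 bp downstream and 251 bp upstream of a start site of CG4297.

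Cabut's gene cbt, at chr2L:476446-479688 on the minus strand, lies inside the opening intron of ush, and its 5 IDR peaks are all among the 21 of ush. The leading summit of both genes was 1405 bp upstream of cbt and 4873 bp downstream of the ush start site, so on position alone it is closer to cbt. The promoter peak of cbt, chr2L:479865-480282, had its summit 388 bp upstream of the start site and a signal of 4969. It ranked 154 in the IDR list and 202, 136 and 151 in replicates 1, 2 and 3, all below the leading peak of the locus. Another peak, of signal 1846, lay 553 bp downstream of the start site in an exon of cbt, and it ranked 1063, 1169 and 1540 in the replicates. Farther upstream within the window, signals were 641 at 2283 bp and 384 at 4493 bp. The next summit on that side, 1172 bp outside the window of cbt, was higher again at 581. The peak at 4493 bp was held by 2 replicates and ranked 13951 in replicate 2. Peaks cannot be assigned to ush or to cbt from these data.

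CtBP, at chr3R:13011649-13026275 on the plus strand, had 4 IDR peaks. The strongest, chr3R:13010648-13011376, had a signal of 5502 and ranked 123 in the IDR list and 86, 119 and 209 in replicates 1, 2 and 3. Its summit was 650 bp upstream of CtBP but 311 bp downstream of a start site of CG8031, within the span of CG8031 and CG11656, so it counted as a promoter peak of CG8031 and not of CtBP. The promoter peak of CtBP itself, 202 bp past its second start site, had a signal of 461 and ranked 3829, 6551 and 18702 in the replicates. Replicate 3 placed it far below the others and it was held by 2 replicates. The intronic peaks, 873 bp downstream of the outer start site and 1233 bp upstream of the second, had signals of 820 and 260. Only the stronger of this pair was held by all 3 replicates.

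Smr, at chrX:12684203-12742618 on the minus strand, had 7 IDR peaks, all intronic and all held by 3 replicates. The leading peak, chrX:12735375-12735933, had a signal of 3935 (rank 288), 6387 bp downstream of the nearest start site of Smr and 4730 bp from one of the noncoding RNA gene lncRNA:CR43963, the nearest annotated. It ranked 200, 767 and 210 in replicates 1, 2 and 3, so replicate 2 placed it well below the others. A neighbouring summit 713 bp farther into the gene had a signal of 2455 (rank 769), and replicate 1 covered both with a single peak, which gives both the same rank there. With summits of signal 1181 and 750 at 4629 and 3937 bp, 4 peaks formed a group in an intron that opens 2 of the 4 transcripts. The other 3 peaks lay 16649, 22721 and 42726 bp from the nearest start site of Smr, with signals of 573, 1905 and 1150. The first of them was 5532 bp and the next 889 bp from a start site of lncRNA:CR43963, and the last was 6510 bp from one of CG15725. At its 3 start sites Smr had no IDR summit. The pooled list had 3 weak peaks there, the best at rank 15188.

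The gro gene, at chr3R:26041736-26049911 on the plus strand, showed a different layout, with 2 IDR peaks that were both promoter summits. The stronger, chr3R:26042303-26042680, lay 150 bp upstream of the third of its 4 start sites and in an intron of the transcripts that begin farther out. Its signal was 2634 (rank 664), and it ranked 839, 515 and 639 in replicates 1, 2 and 3. The weaker, 156 bp upstream of the outermost start site, had a signal of 421 and ranked 8752, 5199 and 5179. Both were held by all 3 replicates. The gene lies beside the Enhancer of split complex, whose helix-loop-helix repressors act with Groucho, and the peak just outside the upstream limit of the window, by 71 bp, was nearest to E(spl)m7-HLH with a signal of 3574 (rank 357). That is higher than either peak inside.

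Sin3A, at chr2R:12575240-12592917 on the minus strand, had 4 IDR peaks arranged around its 2 start sites. The strongest, chr2R:12591457-12591795, was intronic, 1292 bp downstream of the outer start site, with a signal of 1869 (rank 1197). It ranked 1233, 1124 and 1315 in replicates 1, 2 and 3, a narrow range. Promoter peaks of signal 891 and 1313 lay 162 bp upstream of the outer and 377 bp upstream of the inner start site, and the latter was closer to the noncoding RNA gene lncRNA:CR30055. These 3 peaks were held by all replicates. The fourth, 897 bp past the inner start site with a signal of 297, was held by 2.

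HDAC1, at chr3L:4626734-4629467 on the plus strand, is the shortest member and had no IDR peak in its body or within 500 bp of its start site. Its 3 peaks lay 623, 1863 and 2666 bp upstream, all inside the span of the tyrosine kinase gene Src64B. The strongest, chr3L:4624710-4625085, had a signal of 1812 (rank 1261), with ranks of 1413, 1204 and 1130 in replicates 1, 2 and 3. The nearest to HDAC1 had a signal of 452 and sat 21 bp downstream of a start site of Src64B, so it counted as a promoter peak of that gene and not of HDAC1. In the pooled list a weak peak with a signal of 162 (rank 14396) lay 421 bp downstream of the HDAC1 start site.

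**Figure D3:**
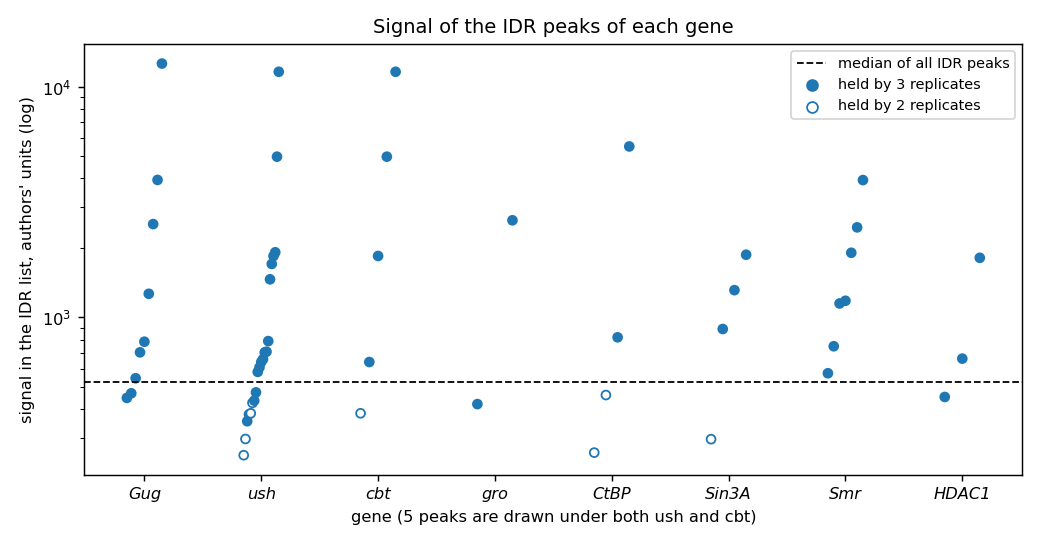
Signal of each IDR peak in the authors' units, on a logarithmic axis, by gene, with filled points for peaks held by all 3 replicates and open points for those held by 2; the dashed line is the median of all IDR peaks, 526. Every open point lies below the dashed line, and all 7 Smr peaks lie above it.

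Across the 50 peaks signal ran from 253 to 12575 with a median of 730, against a median of 526 in the whole IDR list, and 35 (70%) exceeded that median. Among the 50, 43 (86.0%) were held by all 3 replicates and 7 by 2, against 78.3% and 16.2% of all IDR peaks. The median signal was 820 for those held by 3 and 298 for those held by 2. Those held by 2 were 4 in the window of ush, 2 in CtBP and 1 in Sin3A. Every 1 of the 50 was overlapped by some peak in the full list of each replicate. In 45 of the 50 all replicate summits lay within 100 bp of the IDR summit, and the median shift was 10 bp. The same shares of all IDR peaks are not given, so these overlaps and shifts describe the members alone. Across the 50 peaks the replicate signals had Spearman correlations of 0.87 (replicates 1 and 2), 0.89 (1 and 3) and 0.93 (2 and 3). They are given as a description, because the peaks share libraries and the list was filtered with these same replicates.

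Ordered by their strongest peak, the genes ran Gug, then ush with cbt, CtBP, Smr, gro, Sin3A and HDAC1. The spread between replicates did not separate all neighbours in that order. The replicate ranks of Gug (4 to 42) and of ush with cbt (7 to 17) overlapped, and only 1 replicate put Gug first. The ranges of CtBP (86 to 209) and Smr (200 to 767) overlapped, although each replicate put CtBP first, as did those of Smr and gro (515 to 839) and of Sin3A (1124 to 1315) and HDAC1 (1130 to 1413). The ranges stood apart between ush and CtBP and between gro and Sin3A, where all 3 replicates gave the same order. These ranks belong to peaks picked as the strongest of each gene, so they describe the replicates and test nothing.

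**Figure D4:**
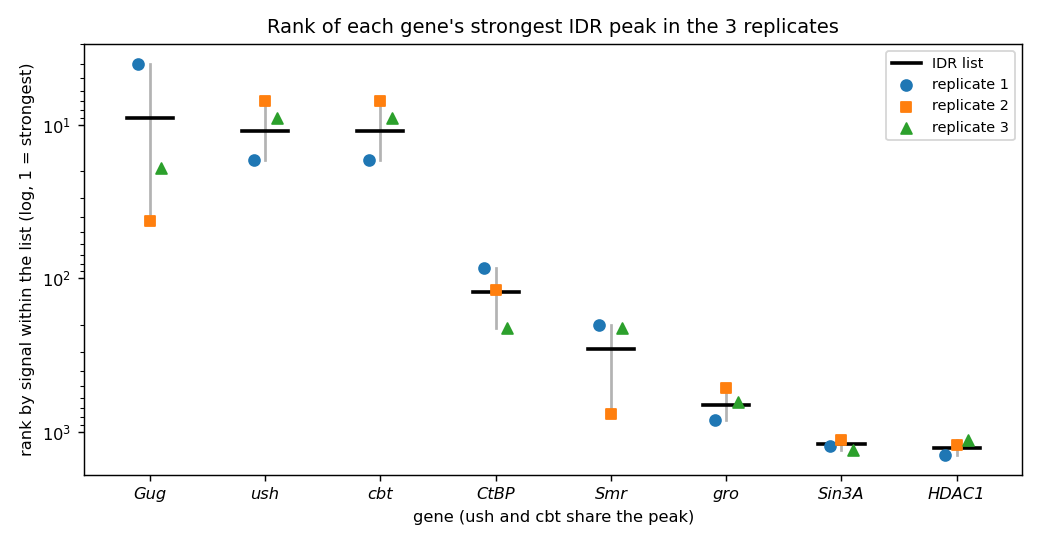
Rank of each gene's strongest IDR peak by signal within each list, on an inverted logarithmic axis with 1 at the top; coloured symbols are the 3 replicates, the grey line their range and the black bar the rank in the IDR list. The replicates of Gug span 4 to 42 and those of Smr 200 to 767, while Sin3A and HDAC1 have narrow ranges that overlap.

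Promoter summits were found at 6 of the 8 genes, all but Smr and HDAC1, where 22.9% of all protein-coding genes had one. Taking as many of the strongest peaks of each replicate as the IDR list contains, the number was 7, 6 and 6 in replicates 1, 2 and 3, with HDAC1 added in replicate 1. The share of all protein-coding genes was 24.8%, 23.7% and 22.7% in the same lists. The count of members depends on the distance allowed, since only 3 had a summit within 250 bp. The share of all protein-coding genes is not given at that distance. Every annotated start of a gene was searched, up to 4 for ush and gro.

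Peaks were close together in these windows. The 50 summits came to 2.10 per 10 kb of window, against 0.765 per 10 kb over the 6 arms, and the introns held 2.70 per 10 kb against 0.851 for the introns of all protein-coding genes, both without the 500 bp around the gene's start sites. Intronic density was 4.52 per 10 kb in Gug, 3.18 in ush, 3.08 in CtBP, 2.60 in Sin3A and 1.65 in Smr, and the short introns of gro and HDAC1 held no IDR summit outside promoters. The median distance between neighbouring summits of a gene was 1605 bp, against 4130 bp between neighbours in the whole list. The members were chosen for strong sites, so these densities are a description.

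The summits were rich in A and T, as were those of the whole list. In the summit base and 50 bases on both sides the median share of A or T was 67.3%, with 52.5% in windows of equal length centred 300 bp to both sides, and in all IDR peaks the values were 70.3% and 54.5%. The summit exceeded its own flanks in 41 of the 50 and in 85.0% of all IDR peaks. Within the members the share ran from 44.6% at a weak distal ush peak to 84.2% at the strongest peak of Sin3A. The leading summits of Gug and ush, 73.3% and 72.3%, were close to that of Smr, 71.3%, and all were above their flanks, whereas CtBP summits were poorest, with a median of 56.9%. The CtBP intronic run printed above had 47.5% at the summit and 61.4% in its flanks.

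**Figure D5:**
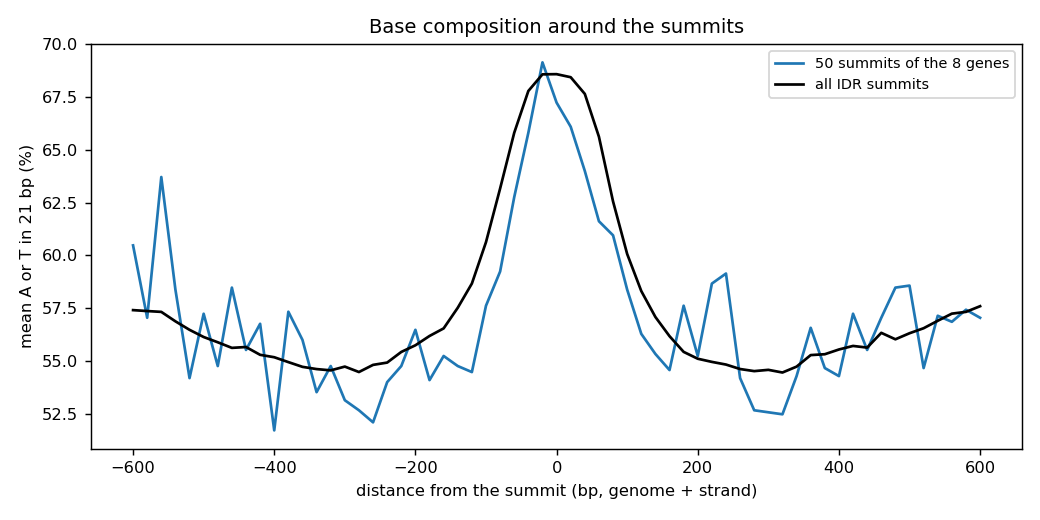
Mean percentage of A or T bases in 21-bp windows against distance from the summit in bp, for the 50 summits of the 8 genes (blue) and for all IDR summits (black). At the summit the lines stand at 67.2% and 68.6%, and 300 bp to the left at 53.1% and 54.7%.

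At least 1 of the 6 motifs was found in 23 of the 50 summit windows. The share of all IDR summits with any of the 6 is not given, so this count describes the members alone. GATAA, which holds the core of GATA factor sites, matched 13 of the 50 summit windows (26%), against 23.6% of all IDR summits. GAGAG, the core of GAGA factor sites, matched 6 (12%, against 9.63%), with 4 of its summits in ush, 1 in Sin3A and 1 in HDAC1. CACCC, found in sites of Krüppel-like factors, matched 5 (10%, against 6.12%), and GGGCGG matched 1 (2%, against 1.18%). TATCGATA and CACGTG had no match in the 50 windows and matched 0.508% and 0.391% of all summits. The leading summits of Gug and of ush with cbt held none of the 6. A match is a description of letters and says nothing of which protein was there.

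Genes that work with these proteins gave mixed counts. Of 50 other genes in 5 lists written with earlier results known, 14 (28.0%) had a promoter summit, 34 (68.0%) any summit in the window and 14 (28.0%) an intronic one. The shares of all protein-coding genes were 22.9%, 50.5% and 11.5%. One of the 300 strongest IDR summits lay in the window of 4 of the 50 (8.0%), against 4.22% of all protein-coding genes. Among partners of Sin3 and histone deacetylases 6 of 12 had a promoter summit. They were led by Sirt1, a sirtuin gene (signal 2179), ebi, which encodes a partner of SMRTER (1171), and Sap130, a Sin3 complex subunit gene (693). Stronger peaks lay in the windows of Caf1-55 (11169, rank 14) and MRG15 (5111, rank 142), but these were neither promoter nor intronic summits of those genes. Genes of NuRD and CoREST, other deacetylase complexes, had 4 of 7, led by MTA1-like (694), MEP-1 (648) and MBD-like (562), and simj, whose promoter signal was 433, had an intronic peak of signal 6753 (rank 69) among 10 in its window. DNA-binding repressors that use Groucho or CtBP had 2 of 18, the pair-rule gene h, now named hry (320), and en (255). For partners of Ush and Gug the count was 2 of 9, ft, an atypical cadherin gene (4505), and the GATA factor gene grn (254). In this list 8 of 9 had a summit in the window and 6 of 9 an intronic one, against 50.5% and 11.5% of all protein-coding genes. The pnr gene had an intronic summit but no promoter summit. Krüppel-like factor genes had 0 of 5, yet luna, dar1 and the gene once called CG9895 had 14, 5 and 8 intronic peaks. Among the HDAC genes, HDAC3 and HDAC6 had no IDR peak in the window and HDAC4 had 6, of which 5 were intronic.

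The count of peaks in the windows depended on the limits. It was 50 here, 40 in gene bodies and 64 in the wider windows described at the end. Just inside, the closest summits to a limit were at ush, 140 bp from the upstream limit (signal 790), and at Gug, 231 bp (706). Just outside, the closest were at gro, 71 bp (3574), at ush, 504 bp (497), and at Sin3A, 569 bp (499).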

How the data were processed

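Per the deposited file lists, the authors called peaks on the dm6 assembly for each of 3 replicates and for the replicates pooled, against 1 control alignment, and kept a list by the IDR procedure. No source used here gives the caller, aligner or read filters. Each list gives the authors' signal per peak, which is never negative and whose scale differs between lists, so ranks within a list were used across replicates. The deposited −log10 q-value stood at its maximum of 4.21 in 46 of the 50 peaks and was not used for ranking. The deposited summit offset, another column, was added to the start of the interval. The IDR peaks were the strongest of the pooled list.

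Genes, exons and start sites came from Ensembl release 115 and sequence from the RefSeq release 6 assembly, both in dm6 coordinates, limited to 6 arms and without transposable elements. Older symbols were matched through RefSeq synonyms. A promoter summit lies within 500 bp of any start site of the gene. A peak was held by a replicate where 1 bp or more overlapped the strongest peaks of that replicate, as many as the IDR list holds, and replicate values are those of the peak with the largest overlap. Nothing was tested, because members and lists were chosen with earlier results of these data known and there is 1 group. All members were named, with their strongest peak and all promoter peaks, and for each related list the 3 strongest promoter summits. The class of 300 strongest peaks, the length class and the promoter counts per replicate were added after the data had been seen. Window limits, promoter distance, overlap, list length and left-out replicates were varied. Functions were tested on simulated data. Python 3.11.15, pandas 2.3.3, numpy 2.4.6 and matplotlib 3.10.9 were used.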

Additional observations from a re-analysis of the deposited data

How the results depend on the processing

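The count of members with a promoter summit was 6 and moved most, to 3 with a promoter distance of 250 bp. It was 7 with 1000 bp, 4 in the upper 50% of the IDR list by signal and 8 in the pooled list, and leaving out 1 replicate while asking both others to hold the peak gave 4 to 6. The 2 lost without replicate 1 or 2 were ush and CtBP. The share of all protein-coding genes at these settings is not given, so these counts describe the members alone. The count of peaks in the windows, 50, ran from 35 in the upper 50% of the IDR list by signal to 64 with windows of 10 kb upstream and 5 kb past the gene, and was 40 in gene bodies. The count held by all replicates, 43, ran from 30 with only 50% as many peaks taken from each replicate to 50 with all of its peaks, and leaving out 1 replicate gave 44 to 47. The same shares of all IDR peaks are not given at these settings. Intronic peaks, 35 in all, ran from 25 in the upper 50% of the IDR list by signal to 37 with no promoter class. Read depth is unknown, so a gene without a peak may hold the protein below what these lists detect.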
